A study of Mus musculus with 9 samples.

Results

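The genes described here are the ribosomal protein pseudogenes of the mouse, taken as every gene symbol that begins with the name of a ribosomal protein gene (Rpl, Rps, Rplp or Rpsa) and carries the ending -ps with a number. The rule found 288 genes with 296 transcripts, among 54325 gene symbols and 140658 transcripts in all. The name before the ending gives the parent gene, and the members fell into 57 families. In 56 of these the parent gene was in the table, and the single member Rpl48-ps1 had none. The largest families were those of Rpl31 with 24 members, Rps12 with 18 and Rpl21 with 15.

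All 3 groups came from N2A cells, a mouse neuroblastoma line, kept for 2 h in 200 nM okadaic acid, which blocks phosphatases that act on proteins such as UPF1. The groups were input RNA without IP, RNA recovered with control rabbit IgG (rIgG IP) and RNA recovered with antibody to phosphorylated UPF1 (p-UPF1 IP), with 3 libraries each. The 3 libraries of a group carry replicate numbers, and because the labels do not tie them to separate cultures, p-values measure the spread between these libraries. Total counts were 25184464 to 29857955 in the input, 5312526 to 6246110 in the p-UPF1 IP and 79010 to 474491 in the rIgG IP libraries. The smallest level that the depth could show, 3 counts of a library, was 0.1005 to 0.119 CPM (counts scaled to a common library total) in the input, 0.480 to 0.565 CPM in the p-UPF1 IP and 6.32 to 38.0 CPM in the rIgG IP. These limits cover counting error only, because reads copied by PCR are not separate molecules. No library repeated another of its group (chi-square over genes, 3.62 to 15.6 for each degree of freedom). Of 14 markers of neuroblastoma or sympathetic neurons, 12 had counts in all 3 input libraries, at a summed 215 to 235 CPM, whereas 6 immune markers summed to 0.0670 to 0.199 CPM and 5 fibroblast markers, with Col1a2 and Col3a1 at 0, to 0.807 to 0.904 CPM.

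UPF1 is an RNA helicase that is phosphorylated when it acts in nonsense-mediated mRNA decay (NMD), so that RNA bound by p-UPF1 serves as a readout of NMD. Ribosomal protein mRNAs are short, abundant and heavily translated. They have been copied back into the genome by reverse transcription many times, and such processed pseudogenes lack the introns of the parent gene and lie at unrelated places. Unless a new promoter lies nearby they are often silent, and because a copy starts out identical to the mRNA, a short read can belong to either.

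The annotation of GENCODE M21 (GRCm38) called 275 members processed pseudogenes, 7 transcribed processed pseudogenes and 6 protein coding. Of the 288, 277 had a single exon, and 29 lay on the X chromosome, more than on any other. The libraries hold fragments of 25 to 50 nt, of which the authors kept reads of at least 35 nt. Therefore every 35-base window of a member was looked up in the transcripts of all other genes. A median of 47.5% of a member's windows were its own (interquartile range 19.6% to 81.8%), and a median of 28.7% were also in the parent gene. The best alignment to a parent transcript had a median identity of 95.5% in the 283 members that aligned, and 12 members matched the parent over their whole length without a difference.

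The members with the most counts were among the closest copies, and pairs of 30-base stretches from the parent's coding part show how little there was to tell them apart. All come from GENCODE M21 transcripts, 5′ to 3′, with the bases that differ in capitals. Each pair shows the stretch without gaps that has the most differing bases. The first 3 pairs belong to members whose counts, described below, moved against those of the parent.
Rpl3-ps1: gggcttcctgcctcgAaagcgcagcagccg
Rpl3: gggcttcctgcctcgCaagcgcagcagccg
Rpl14-ps1: ctgaaagcttctccTaaGaaagcagctgtg
Rpl14: ctgaaagcttctccCaaAaaagcagctgtg
Rps26-ps1: aagaaacaacggtcgTgccaaaaagggccg
Rps26: aagaaacaacggtcgCgccaaaaagggccg
Rpl3-ps1 (chrX:13202571-13203780, plus strand) differed from Rpl3 at 2 bases in 1210, Rpl14-ps1 (chr7:45324965-45325617, plus strand) from Rpl14 at 4 bases and a gap of 3, and Rps26-ps1 (chr8:107439131-107439579, minus strand) from Rps26 at 4 bases of its aligned part.

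Other members could not be told from the parent at all. The first 30 coding bases of 3 of them, which the parent shares base for base, are given to show this.
Rpl38-ps2 and Rpl38: atgcctcggaaaattgaggagatcaaggac
Rpl36a-ps2 and Rpl36a: atggtgaacgtgcctaaaacccgccggaca
Rps12-ps3 and Rps12: atggccgaggaaggcatagctgctggaggt
Rpl38-ps2 (chr6:140746960-140747172, minus strand), Rpl36a-ps2 (chr3:145879020-145879340, plus strand) and Rps12-ps3 (chr19:59322290-59322783, plus strand) had no window of their own, and all their windows were in the parent. At the other end stood diverged copies such as Rpl23a-ps5 (chr3:47230538-47231003, minus strand), with 73.8% own windows. It had 30 mismatches and 93.1% identity over its aligned part. The stretch shown is the one with the most mismatches and holds 8 of them.
Rpl23a-ps5: cAgctcTggaAgcagGAaaaatatATtTgg
Rpl23a: cGgctcCggaGgcagCCaaaatatCCtCgg

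Counts were very unevenly spread over the members. Of the 288, 75 had no count in any library, 133 had 1 to 9 counts in all 9 libraries together, and 80 had at least 10. Only 18 reached 100 counts. The 12 members with the most counts held 94.1% of the 46898 counts, and the first pair, Rps2-ps10 and Rpl3-ps1, held 49.3%. These are counts per gene and are not corrected for length.

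Most counts lay on members close to other genes. The 32 members with less than 5% own windows held 87.2% of all counts, although 23 of them had no own window at all. The 74 members with at least 80% own windows held 0.371%, with 30 counts in the highest of them, and 29 of the 74 had no count. Among the 18 members with 100 counts or more, the median identity to the parent was 99.3% and the median share of own windows 7.61%, against 94.4% and 64.2% in the 133 members with 1 to 9 counts. The 75 members with no count did not follow this order. They had a median of 54.5% own windows, and 8 of the 23 members with no own window, such as Rpl10-ps1 and Rpl28-ps1, had no count. The plot of counts against own windows shows the members with the most counts at its left edge.

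**Figure D1:**
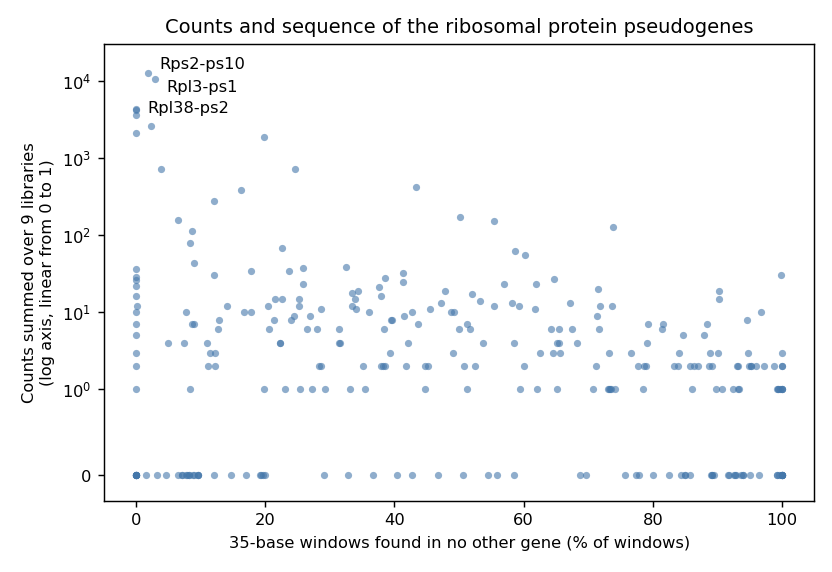
Each point is 1 of the 288 pseudogenes; the x axis gives the share of its 35-base windows found in no other gene (percent) and the y axis its counts summed over 9 libraries, on a log axis that is linear from 0 to 1. Rps2-ps10, Rpl3-ps1 and Rpl38-ps2 are named, and the 74 members from 80% upwards stay at or below 30 counts.

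In the input, 194 members had a count in at least 1 library, 73 in all 3, and 17 had at least 10 counts in all 3. In the p-UPF1 IP 70 were seen in at least 1 library and 4 in all 3, which were Rps2-ps10, Rpl3-ps1, Rpl38-ps2 and Rpl36-ps2. In the rIgG IP, at its low depth, 32 were seen in at least 1 library and 3 in all 3. The members together took 480, 501 and 571 CPM of the input libraries and 281, 228 and 223 CPM of the p-UPF1 IP libraries, by library totals. In the rIgG IP they took 674, 526 and 671 CPM.

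Of all counts on the 56 families, pseudogenes and parent genes together, 9.81% ± 0.838 (SD, n = 3) lay on pseudogenes in the input, 10.97% ± 1.54 in the p-UPF1 IP and 16.8% ± 2.98 in the rIgG IP. The p-UPF1 IP overlapped with the input (two-sided exact permutation test, p = 0.4). This rested on Rps2-ps10. Without it the share was 6.55%, 7.05% and 8.07% in the input against 11.8%, 8.42% and 9.75% in the p-UPF1 IP. The p-UPF1 IP was then higher in every library (exact p = 0.1). That share still held Rpl3-ps1, with 2890 of the 4262 member counts in the p-UPF1 IP and 7706 of 42155 in the input. The rise therefore cannot be read as one of the other members, and the share without both was not computed. The rIgG IP lay above the input in every library (exact p = 0.1, the smallest that 3 against 3 libraries allow). In a typical family the share was near 0, with a median over families of 0.304% ± 0.0908 in the input, and 36 of the 56 families were under 1% there. In 4 families the pseudogenes held more than the parent gene in the input.

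Most of the 12 members with the most counts were far lower in the p-UPF1 IP than in the input. Rps2-ps10, a copy of the gene for a protein of the small subunit near the mRNA entry, had 3740, 3612 and 4609 counts in the input, 110, 173 and 152 in the p-UPF1 IP and 66, 0 and 0 in the rIgG IP. Scaled by TMM, its level was 169.7 ± 13.3 CPM in the input and 21.3 ± 2.55 CPM in the p-UPF1 IP (SD, n = 3), a log2 fold change of -2.99 ± 0.10 (SE; adjusted p = 4.7e-09, edgeR's quasi-likelihood test). Its parent Rps2 had 1508, 1329 and 1705 counts in the input against 85, 108 and 141 in the p-UPF1 IP, a log2 fold change of -1.97. Neither gene had an overlap between these groups. Rps2-ps10 was among the members with less than 5% own windows, so how counts were split between it and genes of like sequence is that of the authors' quantification.

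Rpl38-ps2 is a copy of the gene for a small protein of the large subunit. It had 1354, 1254 and 1507 counts in the input, 66, 75 and 72 in the p-UPF1 IP and 19, 2 and 2 in the rIgG IP, and its log2 fold change in the p-UPF1 IP over input was -2.47 ± 0.08 (adjusted p = 4.5e-09). Rpl38, of the same sequence over these bases, had 661, 562 and 894 counts in the input against 31, 34 and 14 in the p-UPF1 IP, a log2 fold change of -2.93 ± 0.25. The pseudogene held 62.8% to 69.1% of the counts of this pair in the input and 68.0% to 83.7% in the p-UPF1 IP, so that the share overlapped. For such copies the gene from which a read came cannot be told apart.

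Rpl36a-ps2 is also a perfect copy, so the split of counts between it and Rpl36a is that of the authors' quantification and cannot be read as a difference between the genes. Its counts were 1305, 1266 and 1585 in the input, whereas none of the p-UPF1 IP libraries had any, at least 131.7-fold lower when the p-UPF1 IP is set to 3 counts per library. Rpl36a had 328, 327 and 423 counts in the input against 65, 89 and 74 in the p-UPF1 IP, a log2 fold change of -0.44 ± 0.11 (adjusted p = 0.0047). The pseudogene thus took 78.9% to 79.9% of the pair's counts in the input and 0% in the p-UPF1 IP. With the counts of the family added together, the log2 fold change was -2.73, against -0.44 for the parent gene alone.

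Rps12-ps3 is annotated as protein coding in spite of its name. Its counts in the input were 1035, 1568 and 963 while those of Rps12 were 1887, 1420 and 2277, so that the library with the most counts on one had the fewest on the other. In the p-UPF1 IP the pseudogene had 0, 32 and 26 counts and Rps12 218, 227 and 185. The log2 fold change was -4.17 ± 0.45 for Rps12-ps3 (adjusted p = 1.8e-05) and -1.34 ± 0.15 for Rps12.

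Rpl30 has 2 members among the 12. Rpl30-ps9 had 782, 703 and 1042 counts in the input against 15, 0 and 14 in the p-UPF1 IP, and Rpl30-ps8 had 712, 608 and 764 against 0, 0 and 14. Their log2 fold changes were -4.63 ± 0.38 and -5.41 ± 0.44 (adjusted p = 2.4e-06 and 2.3e-06), and that of Rpl30, whose protein is known to bind its own transcript in yeast, was -2.50 ± 0.27. All 3 genes were lower in every p-UPF1 IP library than in any input library. Rpl30-ps8 had no own window and Rpl30-ps9 2.25%, so the split of counts among such copies is that of the authors' quantification.

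Rpsa-ps12, a copy of the gene for a small-subunit protein also known as the laminin receptor, differs from Rpsa at 20 bases and had 43.4% own windows. It had 160, 137 and 117 counts in the input against 0, 1 and 1 in the p-UPF1 IP, a log2 fold change of -5.79 ± 0.44 (adjusted p = 1.3e-06). Rpsa fell by 2.71 on the log2 scale. The ratio of pseudogene to parent was lower in every p-UPF1 IP library than in the input (exact p = 0.1).

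Rpl36-ps2 (chr11:76601319-76601629) changed less than the others. It had 170, 187 and 233 counts in the input, 45, 33 and 43 in the p-UPF1 IP and 0, 0 and 2 in the rIgG IP. Its log2 fold change was -0.48 ± 0.18 (adjusted p = 0.036) and lost significance by library totals alone (-0.07, adjusted p = 0.71), while Rpl36 stood at -1.45 ± 0.12.

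**Figure D2:**
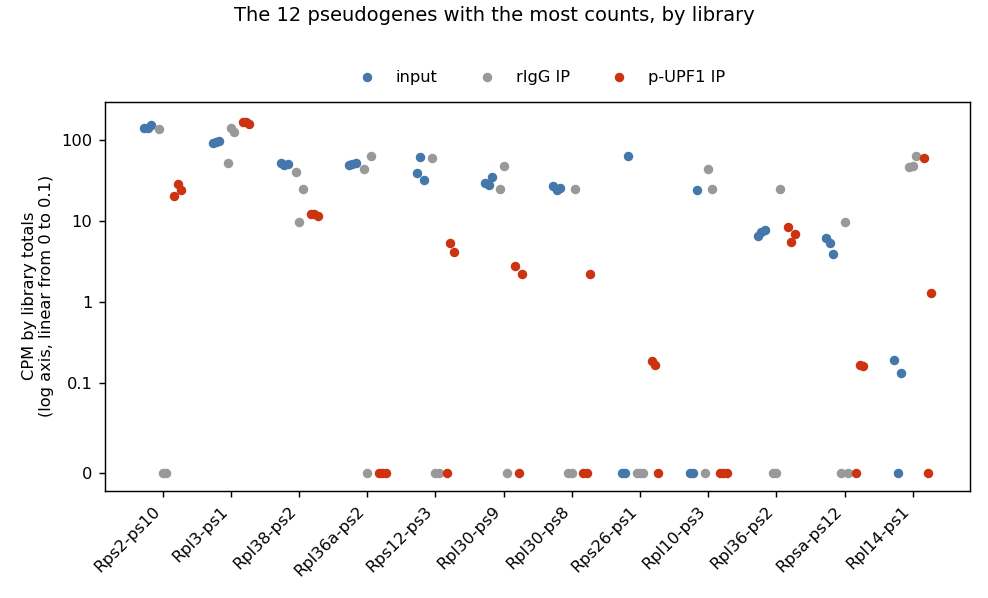
The 12 pseudogenes with the most counts are on the x axis, and each point is 1 library (blue, input; grey, rIgG IP; red, p-UPF1 IP; 3 each) in CPM by library totals, on a log axis that is linear from 0 to 0.1. Of the 12, only Rpl3-ps1 has all 3 p-UPF1 IP libraries above all input libraries, and Rps26-ps1, Rpl10-ps3 and Rpl14-ps1 are among those with libraries of 1 group both at 0 and above 1 CPM.

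Rpl3-ps1 was the exception. Rpl3 encodes a protein close to the catalytic centre of the large subunit, and its pre-mRNA is known to be spliced in part into a form that is degraded by NMD. Rpl3-ps1 had 2387, 2379 and 2940 counts in the input, 884, 1010 and 996 in the p-UPF1 IP and 25, 29 and 10 in the rIgG IP. Its level was 109 ± 7.62 CPM in the input and 143 ± 6.04 CPM in the p-UPF1 IP (scaled by TMM), a log2 fold change of 0.39 ± 0.07 (adjusted p = 0.0011). It was the only tested member higher in every p-UPF1 IP library than in every input library. Such a separation was seen in 28.0% of all genes tested. The call was lost on transcripts as deposited (0.08, adjusted p = 0.42). Since it has 1 transcript, its own counts are the same there, and the scaling and the other entries of the fit differ. By library totals it stood at 91.7, 94.5 and 98.5 CPM in the input against 166, 167 and 159 CPM in the p-UPF1 IP, so the size depends on the scaling.

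The parent moved the other way. Rpl3 had 2690, 2554 and 2567 counts in the input against 394, 415 and 421 in the p-UPF1 IP, a log2 fold change of -0.87 ± 0.08 (adjusted p = 7.4e-06). The pseudogene held 47.0% to 53.4% of the pair's counts in the input and 69.2% to 70.9% in the p-UPF1 IP, without overlap (exact p = 0.1 for the log2 ratio). Of its windows, 94.0% were in Rpl3 and 3.0% were its own.

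Within Rpl3, the transcripts differed. The protein-coding transcript Rpl3-201 had 2087, 2336 and 2301 counts in the input against 92, 95 and 71 in the p-UPF1 IP, a log2 fold change of -3.20 ± 0.19 on transcripts (adjusted p = 3.6e-04). Rpl3-205, annotated as subject to NMD, had 426, 109 and 98 counts against 171, 173 and 208, and its log2 fold change of 1.28 ± 0.63 did not pass the test (adjusted p = 0.18). Rpl3-204, annotated with a retained intron, had 85, 46 and 55 counts against 123, 145 and 134, and rose by 2.60 ± 0.27 on the log2 scale (adjusted p = 0.0019).

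The spliced sequence that Rpl3-ps1 copies is that of Rpl3-201, so the counts of both were added. Their sum was 172, 187 and 176 CPM in the input and 184, 183 and 171 CPM in the p-UPF1 IP by library totals, a difference of 0.0084 on the log2 scale (two-sided exact permutation p = 1.0), and the groups overlapped. This depended on the scaling. Scaled by TMM, the sum was 195, 211 and 210 CPM in the input and 165, 152 and 150 CPM in the p-UPF1 IP, lower in every library by 0.40 on the log2 scale on average (exact p = 0.1). The pseudogene's share of the pair does not depend on the scaling. In the rIgG IP the sum was 145, 141 and 127 CPM, on 44, 0 and 0 counts of Rpl3-201 and 25, 29 and 10 of Rpl3-ps1.

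**Figure D3:**
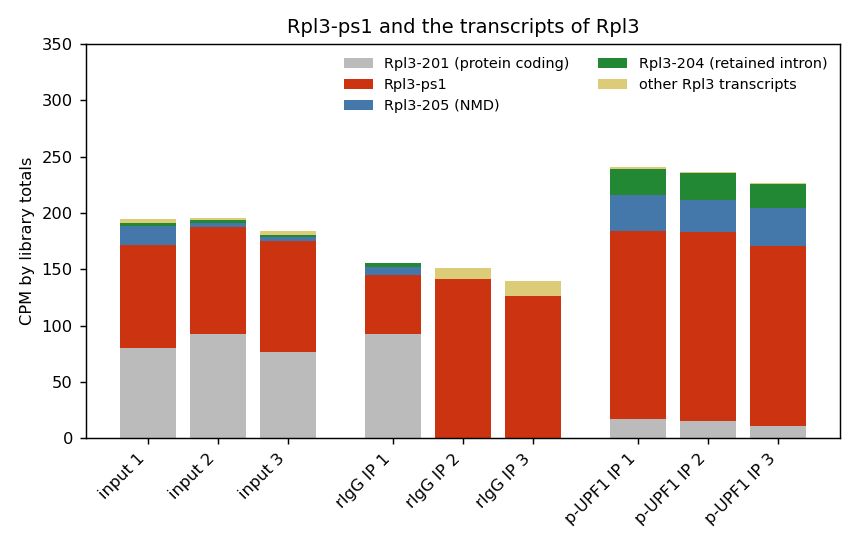
Stacked bars give, for each of the 9 libraries on the x axis, the CPM by library totals of Rpl3-201 (grey), Rpl3-ps1 (red), Rpl3-205 (blue), Rpl3-204 (green) and the other Rpl3 transcripts (yellow). The grey and red parts together reach 171 to 187 CPM in the input and p-UPF1 IP libraries, and the grey part shrinks in the p-UPF1 IP.

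Other members went from 0 to many counts between libraries of the same group. Rps26-ps1 had 0, 0 and 1888 counts in the input against 1, 1 and 0 in the p-UPF1 IP. Rps26, which encodes a small-subunit protein that contacts the mRNA near the exit, had 4626, 4156 and 4006 counts in the input, so that it was lowest in CPM in the library where the pseudogene was counted (134 CPM against 178 and 165). Rpl10-ps3, annotated as protein coding, had 0, 0 and 717 counts, and Rpl10, which encodes a protein that joins the large subunit late in its assembly, stood at 178, 178 and 159 CPM. Added together, Rpl10-ps3 and Rpl10 stood at 178, 178 and 184 CPM, and Rps26-ps1 and Rps26 at 178, 165 and 197 CPM, highest where the pseudogene was counted. Neither pseudogene passed the test in the p-UPF1 IP over input (adjusted p = 0.078 and 0.13), but both parents did, with log2 fold changes of -3.64 ± 0.12 for Rps26 and -3.61 ± 0.08 for Rpl10.

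Rpl14-ps1 showed the same within the p-UPF1 IP. It had 5, 0 and 4 counts in the input, 325, 0 and 8 in the p-UPF1 IP and 22, 10 and 5 in the rIgG IP. Rpl14 had 153, 635 and 550 counts in the p-UPF1 IP, lowest in the library where the pseudogene was highest, and the sum of the pair was 90.0, 105 and 89.3 CPM. Rpl14-ps1 was called enriched, with a log2 fold change of 7.03 ± 1.78 (adjusted p = 0.0060), but without p-UPF1 IP replicate 1 it stood at 2.12 and was not called (adjusted p = 0.19).

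Over the 21 members with at least 50 counts in the input, the median coefficient of variation among the 3 input libraries was 22.04% for the pseudogene, 6.48% for the parent gene and 4.00% for the whole family added together, all by library totals. The 21 members come from 17 families, and a sum over more counts can vary less through counting error alone, for which no reference was computed. For Rps12-ps3 the values were 34.9% for the pseudogene, 15.4% for Rps12 and 4.5% for the sum of the pair. The dispersion fitted by edgeR over input and p-UPF1 IP had a median biological coefficient of variation of 37.8% for the 73 members tested, 8.81% for the 56 parents and 14.2% for all 16919 genes, though members had fewer counts than parents. In all, 6 of the 25 members with 20 counts or more in an input library were at 0 in another input library (Rpl10-ps3, Rpl36-ps10, Rps2-ps13, Rps2-ps5, Rps26-ps1 and Rpsa-ps10), as were 3 of 7 in the p-UPF1 IP (Rpl14-ps1, Rpl35a-ps2 and Rps12-ps3).

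**Figure D4:**
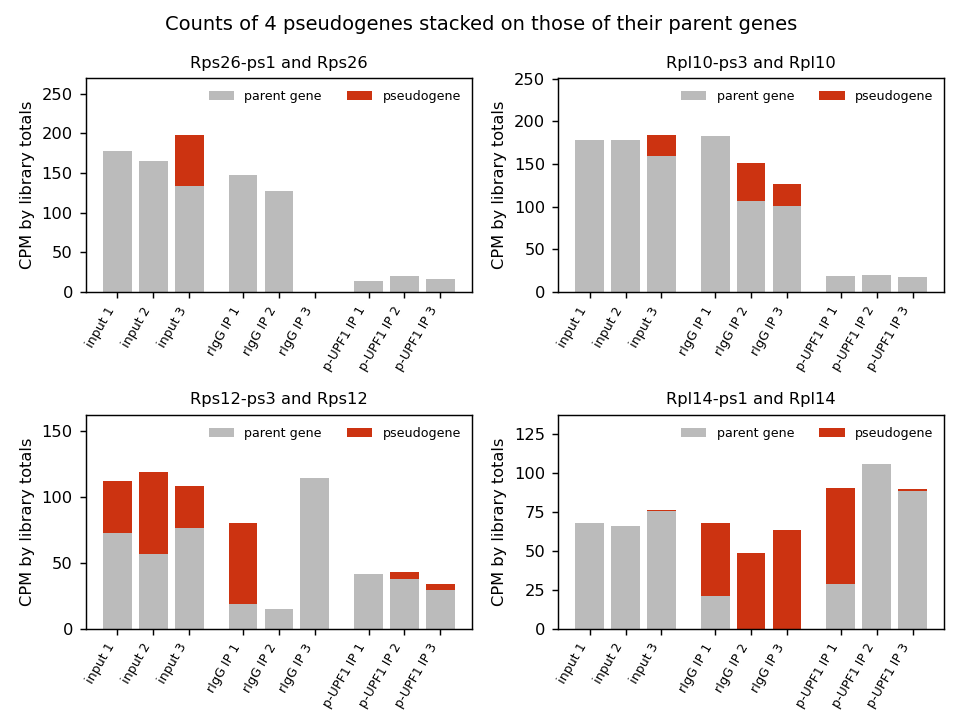
In each of 4 panels the bars give CPM by library totals for the 9 libraries, with the pseudogene (red) stacked on its parent gene (grey). The Rps26-ps1 part appears in input library 3, and the Rpl10-ps3 part in input library 3 and in rIgG IP libraries 2 and 3. Among the p-UPF1 IP libraries, the Rpl14-ps1 part is largest in library 1, where Rpl14 is lowest. In the rIgG IP the Rpl14-ps1 part reaches 46.4, 48.7 and 63.3 CPM.

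The first comparison asked which pseudogene RNA was recovered with p-UPF1 relative to the input. Genes entered the test with at least 10 counts over the 6 libraries. They were called enriched or depleted at a log2 fold change above 1 or below -1 with a Benjamini-Hochberg adjusted p under 0.05. Of the 288 members 73 could be tested, of which 62 had 10 counts in the input libraries by themselves and 12 in the p-UPF1 IP libraries by themselves (9 had both), and a member that passed through one group was bound to be high in it. Of the 73, 28 were depleted and 3 enriched, where 26.5% and 17.3% of all 16919 genes tested were. The median log2 fold change was -4.20 for the members tested and -0.42 for all genes (by library totals alone, -4.14 and -0.01, with 23 members depleted and 3 enriched, and 3160 and 4108 of all genes), but 37 of the 73 had no count in any p-UPF1 IP library, and for these the fitted value is not a measured size.

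Parents and other ribosomal protein genes, all of them far better counted, are given beside them. Of the 56 parent genes 43 were depleted and 1 was enriched, at a median log2 fold change of -2.40, and of all 79 cytoplasmic ribosomal protein genes 65 were depleted and 1 was enriched, at a median of -2.69. The enriched gene was Rpl12, which encodes a protein of the ribosomal stalk base, at 1.41 ± 0.12 (adjusted p = 3.6e-06). Rpl13, Rpl4 and Rpl22 were also higher, at 0.40, 0.24 and 0.17. Among the pseudogenes of other genes, 55 of 946 could be tested, of which 18 were depleted and 7 enriched. They included Pisd-ps1, with 358, 289 and 310 counts in the input against 844, 1025 and 937 in the p-UPF1 IP, a log2 fold change of 3.35 ± 0.10 (adjusted p = 1.8e-09), named here after its values were seen.

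Of the 73 members tested 37 were lower in every p-UPF1 IP library than in every input library, a share near the 42.1% of all genes tested, and the 28 depleted were among the 37. The parent gene was depleted as well for 24 of them. In 19 of the 28 the p-UPF1 IP libraries held no count. Scaled by TMM, 3 counts of a p-UPF1 IP library correspond to 0.448 CPM on average. The input level of 10 of the 19, on the same scale, lay below this limit, so that no fold can be given. For the other 9 the lower bounds ran from 1.15-fold to 131.7-fold. Only 26 members had an input level above that limit, and of these 18 were depleted, 1 was lower without passing the fold (Rpl36-ps2), 1 was higher (Rpl3-ps1) and 6 were not called. Of all 12849 genes above the same limit 30.2% were depleted.

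Among the depleted members were some with sequence of their own. Rps12-ps1 (chrX:103489517-103489917), with 58.6% own windows, had 23, 19 and 21 counts in the input and 0 in the p-UPF1 IP, at least 2.00-fold lower. Rpl15-ps1 (chr11:21953140-21953703), with 60.2% own windows, had 16, 26 and 14 counts against 0, at least 1.80-fold lower. Rpl23a-ps5, whose diverged stretch is given above, had 43, 49 and 33 counts in the input against 0, 3 and 1 in the p-UPF1 IP, a log2 fold change of -3.14 ± 0.59 (adjusted p = 9.5e-04) beside -1.36 ± 0.09 for Rpl23a. Rpl29-ps2 (chr13:4609334-4615025), annotated as transcribed with 4 exons and with 55.3% own windows, had 55, 69 and 26 counts against 0, at least 4.85-fold lower, and Rpl29 fell by 4.39 on the log2 scale.

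Others were close copies with few counts. Rpl9-ps6, annotated as protein coding and with 91.6% of its windows in Rpl9, had 35, 11 and 33 counts in the input and 0 in the p-UPF1 IP, at least 2.48-fold lower. Rpl17-ps10 had 10, 13 and 21 counts against 0, at least 1.38-fold lower. Both parents were depleted, Rpl9 at -2.93 ± 0.08 and Rpl17 at -1.20 ± 0.09.

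The members with the most sequence of their own were hardly seen. Rpl13-ps1 (99.8% own windows, in an intron of Usp32 on the same strand) had 16, 0 and 14 counts in the input and 0 elsewhere. No alignment to Rpl13 was found for it. Rpl19-ps3 (96.7%) had 4, 4 and 2 counts, Rpl10a-ps3 (90.2%) 8, 5 and 5, and Rpl13-ps2 (90.2%) 4, 3 and 7 in the input. In the p-UPF1 IP these 4 together had 1 count, that of Rpl13-ps2. At this depth Rpl10a-ps3 was called depleted (adjusted p = 0.024) and the other 3 were not (adjusted p = 0.072 to 0.18). Scaled by TMM, the input levels of these 4 were 0.144 to 0.419 CPM. They lay below the limit of 3 counts in the p-UPF1 IP on the same scale. The parents of this set ranged more widely, since Rpl13 rose by 0.40 ± 0.09 (adjusted p = 0.0033) and Rpl10a and Rpl19 stood at -0.44 ± 0.09 and -2.55 ± 0.08.

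The 3 members called enriched each rested on few libraries. Beside Rpl14-ps1, these were Rpl35a-ps2 (chr1:181241988-181242320), with 0, 0 and 22 counts in the p-UPF1 IP, and Rps15a-ps7 (chr2:152185291-152185682), with 4, 7 and 0, both without a count in the input. Rpl35a-ps2 differs from Rpl35a at 1 base and had no own window, and Rpl35a had 19, 24 and 19 counts in the p-UPF1 IP. None of the 3 was higher in every p-UPF1 IP library than in every input library.

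**Figure D5:**
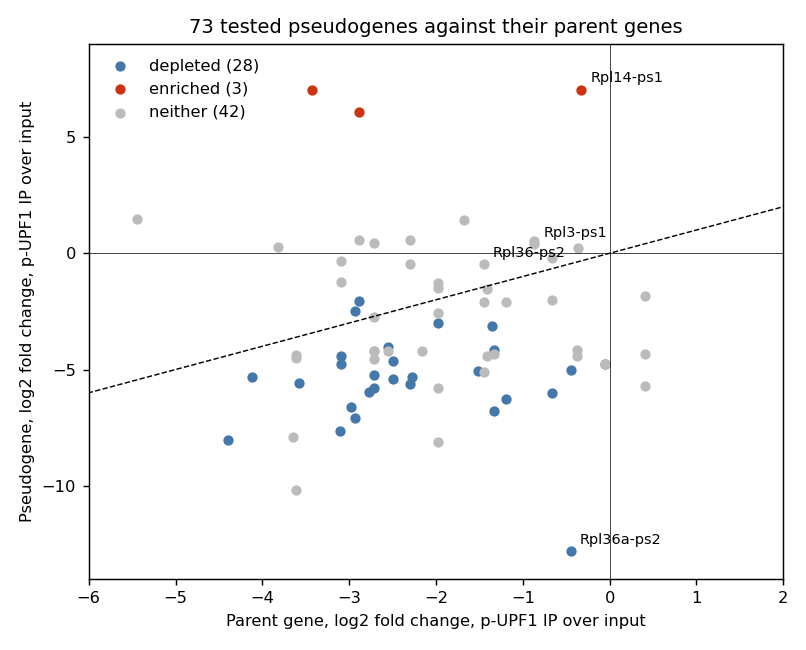
Each point is 1 of the 73 tested pseudogenes, with the log2 fold change of its parent gene in the p-UPF1 IP over input on the x axis and its own on the y axis; colours give its call and the dashed line marks equal values. Of the 73 points, 37 stand for members with no count in the p-UPF1 IP, whose fitted height is not a measured size, so their place below or above the line cannot be read.

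For 22 pseudogenes chosen by their counts, changes or own windows, the log2 ratio of pseudogene to parent (with 0.5 added to each count) was compared between p-UPF1 IP and input. It was lower in every p-UPF1 IP library for 10 and higher for 3 (Rpl3-ps1, Rpl36-ps2 and Rpl19-ps3, the last with no count in the p-UPF1 IP), and overlapped for 9. Of the 10 lower, Rpl36a-ps2, Rps12-ps1, Rpl17-ps10 and Rpl10a-ps3 had no count in the p-UPF1 IP either, and a ratio with such a 0 moves with the depth and the parent. Some of the 22 were named for a large change in this same comparison, so the counts describe them only. No exact test of 3 against 3 libraries can go below p = 0.1. The ratio of Rpl3-ps1 to Rpl3 was 1.26 higher on the log2 scale in the p-UPF1 IP and that of Rps2-ps10 to Rps2 fell by 1.01 on that scale.

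Adding the counts of a family to its parent gene left most parents as they were, with 5 of 56 moving by more than 0.5 on the log2 scale. Beside Rpl36a these were Rpl30 (from -2.50 to -4.04), Rpl3 (from -0.87 to -0.11), Rps2 (from -1.97 to -2.65) and Rps12 (from -1.34 to -1.95). Rpl3 was then no longer lower (adjusted p = 0.16). Of the family sums 44 were depleted, and the median was -2.58. These sums were chosen after seeing the data.

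The second comparison set the p-UPF1 IP against the rIgG IP, the control for RNA that adheres without the antibody to p-UPF1. It shares its p-UPF1 IP libraries with the first. Of the 20 members tested 12 were depleted and 1 was enriched, where 5.34% and 17.5% of the 12033 genes tested were (5.59% were lower at the adjusted p alone), and the median log2 fold change was -3.21, against 0.89 for all genes. Of the 20, 14 had at least 10 counts in the rIgG IP libraries by themselves, and 8 of the 12 depleted had under 10 in the p-UPF1 IP, 6 of them 0, so that these 8 entered through the rIgG IP and were bound to be high in it. In none of the 12 did the groups stand apart, with every p-UPF1 IP library below every rIgG IP library. Such a separation was seen in 5.48% of all genes. Of the parents 28 were depleted and 5 enriched, at a median of -1.34.

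Rpl3-ps1 was the enriched member, at 1.00 ± 0.24 (adjusted p = 0.0028), barely past the fold required, and it was the only one higher in every library, a separation seen in 46.2% of all genes. It passed with neither RLE factors nor library totals. The 12 depleted members were Rps2-ps10, Rpl38-ps2, Rpl36a-ps2, Rps12-ps3, Rpl30-ps9, Rpl10-ps3, Rpsa-ps10, Rpl17-ps3, Rpl17-ps5, Rpl31-ps8, Rpl34-ps1 and Rps13-ps2. Rpsa-ps10 had 51, 9 and 0 counts in the rIgG IP and 9, 0 and 0 in the p-UPF1 IP, and in the input 0, 210 and 0. Without rIgG IP replicate 1, the deepest of its group, 6 were depleted.

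The third comparison, rIgG IP over input, gives the background of the IP itself and shares libraries with both others. Of 71 members tested 6 were enriched and 0 depleted by edgeR, where 0.584% and 0.313% of the 16280 genes tested were. All 6 enriched had under 10 counts in the input, so they entered through the rIgG IP and were bound to be high in it. At an unadjusted p under 0.05, 2 were lower (Rpl30-ps8 and Rpl38-ps2) and 9 higher, and DESeq2 called 4 enriched and 1 depleted. The median log2 fold change was -4.11 for the members and -0.84 for all genes, of which 48.2% were lower in every rIgG IP library than in any input library. In the members it is no measured size, because 49 of the 71 had no count in the rIgG IP, and with DESeq2 it was 1.93. No parent gene was enriched by edgeR, also at an unadjusted p under 0.05 (0 of 56), and 9 were depleted.

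The 6 members were Rpl14-ps1, Rpl17-ps3, Rpl17-ps5, Rpl34-ps1, Rps13-ps2 and Rpl31-ps8, which share 78.1% to 100% of their windows with the parent. Rpl14-ps1 had 22, 10 and 5 counts in the rIgG IP against 10, 0 and 0 for Rpl14, and it was the only one of the 6 higher in every rIgG IP library than in the input, a separation seen in 1.89% of all genes. Rpl17-ps3 had 16, 6 and 0 counts and Rpl17-ps5 16, 0 and 10, whereas Rpl17, at 2618 to 2842 counts in the input, had none in any rIgG IP library. Rpl34-ps1 had 29, 0 and 0 counts, with 6, 10 and 0 for Rpl34. Rps13-ps2, identical to its parent, had 0, 10 and 4 counts where Rps13 had 40, 0 and 1. Rpl31-ps8, also identical to its parent, had 10, 0 and 0.

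Sums of 3 pairs in the rIgG IP, chosen after their values were seen, are given beside their parts. They do not stand for all pairs. In the rIgG IP the coefficient of variation was 91.9% for Rps2-ps10 and Rps2 together, against 68.9% for Rps2. It was 34.6% for Rpl38-ps2 and Rpl38 together, against 13.7% for Rpl38. Rps13-ps2 and Rps13 together stood at 84.3, 48.7 and 63.3 CPM in the rIgG IP, a coefficient of variation of 27.3%, against 86.6% for the pseudogene and 141% for Rps13. Rpl3-ps1 and Rpl3 together stood at 156, 151 and 139 CPM, a coefficient of variation of 5.8%, against 44.4% and 127%. Rpl14-ps1 and Rpl14 together stood at 67.4, 48.7 and 63.3 CPM in the rIgG IP and at 67.7, 66.0 and 75.8 CPM in the input, where Rpl14-ps1 held at most 0.3% of the pair's counts.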

How the data were processed

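RIP-seq libraries of N2A cells were analysed for input RNA, the rIgG IP and the p-UPF1 IP, with 3 libraries each. Reads were trimmed by the authors (fastp), aligned by STAR against GRCm38 with GENCODE M22 and assigned to transcripts by Salmon; per the submitters' processing notes the versions were STAR 2.7.0f and Salmon 0.13.1. The authors deposited estimated counts per transcript, every value an exact whole number, with no scaling between libraries. Salmon shares reads that match several transcripts among them by a model, so counts of near-identical copies are uncertain. Every column was matched to a library by name.

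Here the estimated counts were summed per gene symbol. Each pair of groups was fitted with edgeR 4.0.16 (R 4.3.3; TMM, quasi-likelihood test, Benjamini-Hochberg adjustment over all genes tested) on its 6 libraries, for genes whose counts summed to 10 or more. The SE was the log2 fold change over the square root of F. CPM were scaled by TMM where stated and otherwise by library totals. A group at 0 was set to 3 counts per library for a lower bound. Sequences, types and coordinates came from GENCODE M21, an earlier release on the same build, which matched all 296 member transcripts. Windows of 35 bases were looked up on the transcript strand, and members were aligned to parent transcripts with BLAST.

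The members and lists were chosen with earlier results of these data known. Named were the 12 members with the most counts, up to 8 with the largest change among those called with at least 10 counts in every library of a group, the 5 tested members with the most own windows, and their parents; other members named were chosen after their values were seen. The alternatives were RLE factors, library totals alone, DESeq2 1.42.0, no filter, filterByExpr, a joint fit of 9 libraries, a block for the replicate number, transcripts as deposited, windows of 25 and 50 bases, and leaving out each library.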

Additional observations from a re-analysis of the deposited data

How the results depend on the processing

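For the p-UPF1 IP over input, the 3 enriched pseudogenes became 0 with DESeq2, filterByExpr and transcripts as deposited, and 1 to 3 when single libraries were left out, with 1 without p-UPF1 IP replicate 1. The 28 depleted became 12 with filterByExpr and 16 with transcripts. Against the rIgG IP, the 1 enriched became 0 with RLE factors, library totals, DESeq2, no filter, filterByExpr and the replicate block, and 0 to 1 without single libraries. The 12 depleted became 6 with DESeq2, 3 with filterByExpr, 2 with transcripts and 6 to 14 without single libraries. For the rIgG IP over input, the 6 enriched became 12 with no filter, 2 with filterByExpr, 0 with transcripts and 4 to 10 without single libraries, and the 0 depleted became 1 with DESeq2 and filterByExpr, 3 with no filter, 2 with the replicate block and 0 to 3 without single libraries.

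Signs turned for the median over members against the rIgG IP with no filter (1.25), for that of the rIgG IP over input with DESeq2 (1.93), for Rpl36a on transcripts (0.55) and for Rpl14 by library totals (0.10), by family sums (0.030) and without single libraries (-0.58 to 0.077); the cause was not tested. The share of family counts on pseudogenes was 7.22% in the input and 9.98% in the p-UPF1 IP without Rps2-ps10, with no overlap. It still held Rpl3-ps1, with 2890 of the 4262 member counts in the p-UPF1 IP, and was not computed without both. The median share over families was 0.304% in the input and 0% in both IPs. At the lower depth of the IPs so small a share of a family can give no count, so this is no measured difference.

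Deviations of same-numbered libraries from their group means had mean correlations of 0.0294, -0.0209 and -0.0089, so the numbers were not taken as pairing; in the p-UPF1 IP over input the replicate block gave 3 enriched and 28 depleted. The rIgG IP depth limits what can be seen there to levels above 6.32, 14.6 and 38.0 CPM in its 3 libraries.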
